A study of Mus musculus with 4 samples.

Results

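The palatal shelves of the wild-type mouse embryo were compared with the wild-type embryonic head. The comparison holds 1 array of palatal shelves at embryonic day 13.5 (E13.5) and 1 array of the head at E12.5, 2 of the 4 arrays of the study. All embryos were on a mixed C57BL/6J x FVB/N strain background. The other 2 arrays measured the same tissues, at the same stages, from Tbx1 knockout (Tbx1KO) embryos, which lack a T-box transcription factor of the pharyngeal region. They are given here as a second pair of shelves and head that shares no array with the wild-type pair. Affymetrix Mouse Gene 2.0 ST arrays read RNA with probes along each annotated transcript, and the values are log2 expression, so a difference of 1 is 2-fold. The labels do not say how many embryos or shelves went into a sample, nor how much of the head was taken. Tissue and stage differ together, so a difference between tissues and a difference between stages cannot be told apart. With 1 array per group, the difference of a gene within a pair has no replicate check and no p-value, and so few arrays limit the precision.

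The palatal shelves are paired outgrowths of the maxillary processes, and their fusion above the tongue forms the secondary palate. They consist of mesenchyme, largely from the cranial neural crest, under an oral epithelium with a thin outer layer, the periderm. Bone forms later in the front part of the palate, by direct differentiation of mesenchyme into osteoblasts. The embryonic head holds the brain, cranial ganglia, eyes, inner ears, pituitary and facial processes, so it shares mesenchyme, epithelium, vessels and muscle with the palate and adds the nervous system and sense organs.

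Of 22180 named genes on the array, 11765 entered the wild-type comparison, which means that the higher of the 2 arrays reached log2 6.16, the median level over all named genes and arrays. At least 2-fold apart were 340 genes higher in the shelves, 2.89% of those that entered, and 620 higher in the head, 5.27%. As a share of all genes on the array, against which the gene lists below are read, these were 1.53% and 2.8%. A larger share of the list genes entered, 824 of 1087, so this background is on the low side for them. At least 4-fold apart were 55 genes higher in the shelves (0.467% of those that entered) and 161 higher in the head (1.37%). The median difference over all genes on the array was 0.02, and the SD over the genes that entered was 0.61. Just inside the 2-fold limit lay Eya1, at 1.0012, and Tuba1a, at -1.0004, and just outside lay Fxyd1, at 0.9997, and Rbfox3, at -0.999. Pearson's r between the 2 wild-type arrays was 0.975 over 41345 transcript clusters. It was 0.991 between the head arrays of both genotypes and 0.988 between the shelves arrays, both across clusters, which are not independent replicates.

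A test of the tissue difference was possible over both genotypes together. A limma fit with tissue and genotype as terms, over 11999 genes on all 4 arrays, gave 1555 genes higher in the shelves (13%) and 1787 higher in the head (14.9%) at a Benjamini-Hochberg adjusted p under 0.05, and 4826 genes at an unadjusted p under 0.05. The fit leaves 1 residual degree of freedom, the gap between the wild-type and knockout differences, so its p-values lean on the spread shared over all genes. On simulated data without a genotype effect, it called more unchanged genes than the adjustment aims at. Fits without 1 of the arrays held tissue alone, without genotype, so the model changed along with the arrays. They left 1 array in 1 of the tissues, so their counts are not given. Fewer genes passed each way without a head array than without a shelves array.

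**Figure D1:**
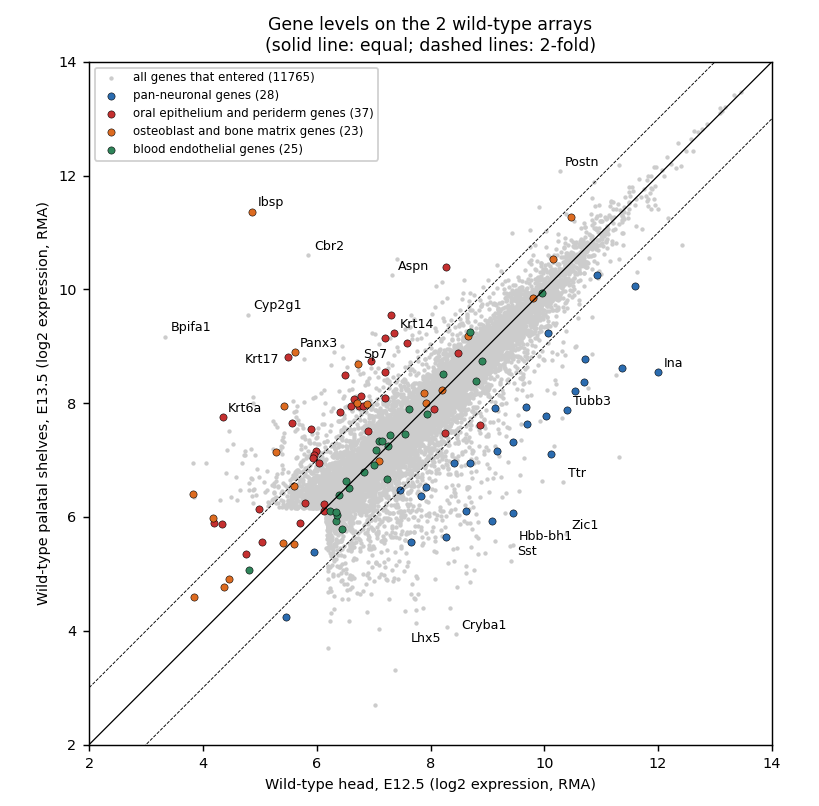
Levels on the 2 wild-type arrays, with the head at E12.5 on the horizontal axis and the palatal shelves at E13.5 on the vertical axis, both in log2 expression; grey points are the 11765 genes that entered and coloured points are all members on the array of 4 gene lists. Pan-neuronal genes lie below the line of equal levels, most oral epithelium genes above it, blood endothelial genes along the diagonal, and Ibsp stands farthest above it at 4.87 and 11.37.

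The labels were checked with defining genes of each tissue, which for the shelves gave a mixed answer. As a whole, the 42 palatal mesenchyme factors had a median of 0.12, with 12 at least 2-fold higher in the shelves, 5 in the head and 20 below 0. In the shelves, the palatal mesenchyme factors Osr2, Tbx22, Barx1 and Meox2 were 2.54- to 2.95-fold higher and Shox2 was 1.77-fold higher, while the epithelial genes Trp63, Krt14 and Cdh1 were 2.26- to 3.67-fold higher. In the head, En2 and Pax6 of the brain, the neuronal genes Tubb3 and Stmn2, the lens crystallins Cryaa and Crybb1 and the inner ear gene Oc90 were 2.90- to 12.96-fold higher. Neurod1 and Rax did not reach the entry limit on either wild-type array. The shelves array was not free of neuronal signal: Stmn2, a growth-cone protein gene, read 10.06 there and Ina, a neurofilament gene, 8.54. For the E13.5 samples 1 label field says head. Their other fields say palatal shelves and were followed.

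The largest differences in favour of the shelves belonged to bone matrix, to nasal and airway type secretory products, and to stratified epithelium. Ibsp encodes bone sialoprotein, an acidic protein of mineralising bone matrix. It read 4.87 and 5.12 on the wild-type and knockout head arrays and 11.37 and 11.29 on the wild-type and knockout shelves arrays. Both shelves arrays were far above both head arrays, by 90.6-fold in the wild type and 72.1-fold in the knockout, and in the limma fit the difference was 6.34 (SE 0.12, adjusted p = 9.13e-06), the smallest p of all genes. Bpifa1, a secreted protein of the nasal and upper airway lining, read 3.34 and 3.37 in the heads and 9.17 and 6.66 in the shelves. The wild-type fold was 56.7 and the knockout fold 9.77. Cbr2, a carbonyl reductase known from airway cells, was 26.9-fold higher in the wild-type shelves and Cyp2f2, a cytochrome P450 of airway epithelium, 9.42-fold. Among the 15 genes with the largest differences were also the keratins Krt6a and Krt17 of periderm and stratified epithelium, the epithelial serpin genes Serpinb5 and Serpinb11, the gap-junction-like channel gene Panx3 of osteoblasts, the proteoglycan genes Omd and Aspn, the phospholipid-binding annexin gene Anxa1, and Olfm5. These ranged from 7.37-fold for Serpinb11 to 10.6-fold for Krt6a, and each differed by 4-fold or more in the knockout pair as well. Cyp2g1 and Fmo6, the other two of the 15, are given with the nasal genes.

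The promoter of Ibsp is shown because this gene has the largest difference of all and because 8 of the 23 osteoblast and bone matrix genes, Ibsp among them, were 2-fold higher in the shelves. It is the 250 bases before the annotated start, at chr5:104299037-104299286 on the plus strand of GRCm38.p6, from RefSeq. Capitals mark 3 motifs known from bone sialoprotein promoters, searched on both strands and each found once, on the plus strand, without overlap: TGACGT of the cyclic AMP response element, ATTGG, known as the inverted CCAAT box, and TTTATA, known as the inverted form of the TATA element.
Ibsp promoter: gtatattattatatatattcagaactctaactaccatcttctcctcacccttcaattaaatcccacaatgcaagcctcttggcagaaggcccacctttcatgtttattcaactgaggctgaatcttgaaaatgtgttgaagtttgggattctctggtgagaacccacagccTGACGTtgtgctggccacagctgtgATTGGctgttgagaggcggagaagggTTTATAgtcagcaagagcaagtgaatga
Their first bases lie at -79, -54 and -28 from the start. Of 32851 RefSeq promoter windows of this length, 6.47% hold TGACGT, 33.8% ATTGG and 12.4% TTTATA. Such a match describes the letters of the window and nothing about the factors that bind it.

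At the other end, most of the genes with the largest differences in favour of the head are known from the nervous system, the lens, the inner ear, the choroid plexus and embryonic blood. Zic1, a zinc finger transcription factor of dorsal neural tissue, read 10.38 and 10.42 in the wild-type and knockout heads and 5.70 and 7.49 in the shelves. The head arrays lay close together and above both shelves arrays, which differed from each other, so that the fold was 25.6 in the wild-type pair and 7.59 in the knockout pair. Cryba1, a lens crystallin, read 8.44 and 8.62 in the heads and 3.94 and 3.74 in the shelves, 22.7-fold apart in the wild type. Ttr, the thyroid hormone carrier made by the choroid plexus, was 13.2-fold higher in the head. Oc90, the main matrix protein gene of the inner ear otoconia, read 8.77 and 5.95 in the heads and 5.07 and 4.88 in the shelves. Here the wild-type head stood above the other 3 arrays. Also among the 15 were the neuropeptide gene Sst, the glycine receptor gene Glra2, the GABA-synthesis gene Gad2, the vesicular glutamate transporter gene Slc17a6, the neural transcription factor genes Lhx5, Neurod6, Prdm8 and Rfx4, the embryonic globin gene Hbb-bh1, the crystallin gene Cryga and the steroid dehydrogenase gene Hsd3b6, between 11.2-fold for Rfx4 and 18.8-fold for Lhx5.

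MicroRNA genes, chosen here after their values were seen, were few but included Mir9-2, 1 of the genes furthest apart. Of 472 microRNA and microRNA host genes on the array, 108 entered, 4 were at least 2-fold higher in the head and 3 in the shelves. The array reads the precursor or the host transcript, not the mature microRNA. Mir9-2 read 7.03 and 6.82 in the heads and 2.69 and 3.26 in the shelves, and its overlapping long non-coding host C130071C03Rik 9.40 and 9.51 and 5.496 and 5.55. For both, the heads stood far above the shelves in both genotypes, by 20.2-fold and 14.97-fold in the wild type. The host transcripts Mir124-2hg, Mir9-3hg and Mir100hg were 13.1-fold, 4.13-fold and 2.69-fold higher in the head. In the shelves, Mir205 was 2.30-fold, Mir218-1 2.04-fold and Mir717 2.73-fold higher. MiR-9 and miR-124 are known from neurons and neural progenitors and miR-205 from stratified epithelium. The mature sequences of the 4 microRNA genes proper that were 2-fold apart are shown, with the seed (bases 2 to 8) in capitals, from RefSeq on GRCm38.p6.
miR-9-5p, gene Mir9-2, chr13:83738821-83738843, plus strand: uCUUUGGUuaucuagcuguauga
miR-717, gene Mir717, chrX:52422461-52422482, minus strand: cUCAGACAgagauaccuucucu
miR-205-5p, gene Mir205, chr1:193507503-193507524, minus strand: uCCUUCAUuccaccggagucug
miR-218-5p, gene Mir218-1, chr5:48223966-48223986, plus strand: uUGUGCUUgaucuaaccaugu
No seed is shared among the 4. MiR-9-5p has further genes, and their precursors did not all follow Mir9-2: Mir9-1 was below the entry limit on both wild-type arrays, at 5.62 in the head and 4.72 in the shelves, and Mir9-3 read 6.19 and 6.45.

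For the cell types, each list is described by how many of its members on the array entered and were at least 2-fold apart in the wild-type pair, and by the median difference over all its members on the array, shelves minus head. Of 63 lists, 7 had a median at least 2-fold higher in the head and 2 at least 2-fold higher in the shelves, and 1087 list genes had a value here, of which 824 entered. In such bulk samples, fewer cells of a type and less RNA per cell cannot be told apart.

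**Figure D2:**
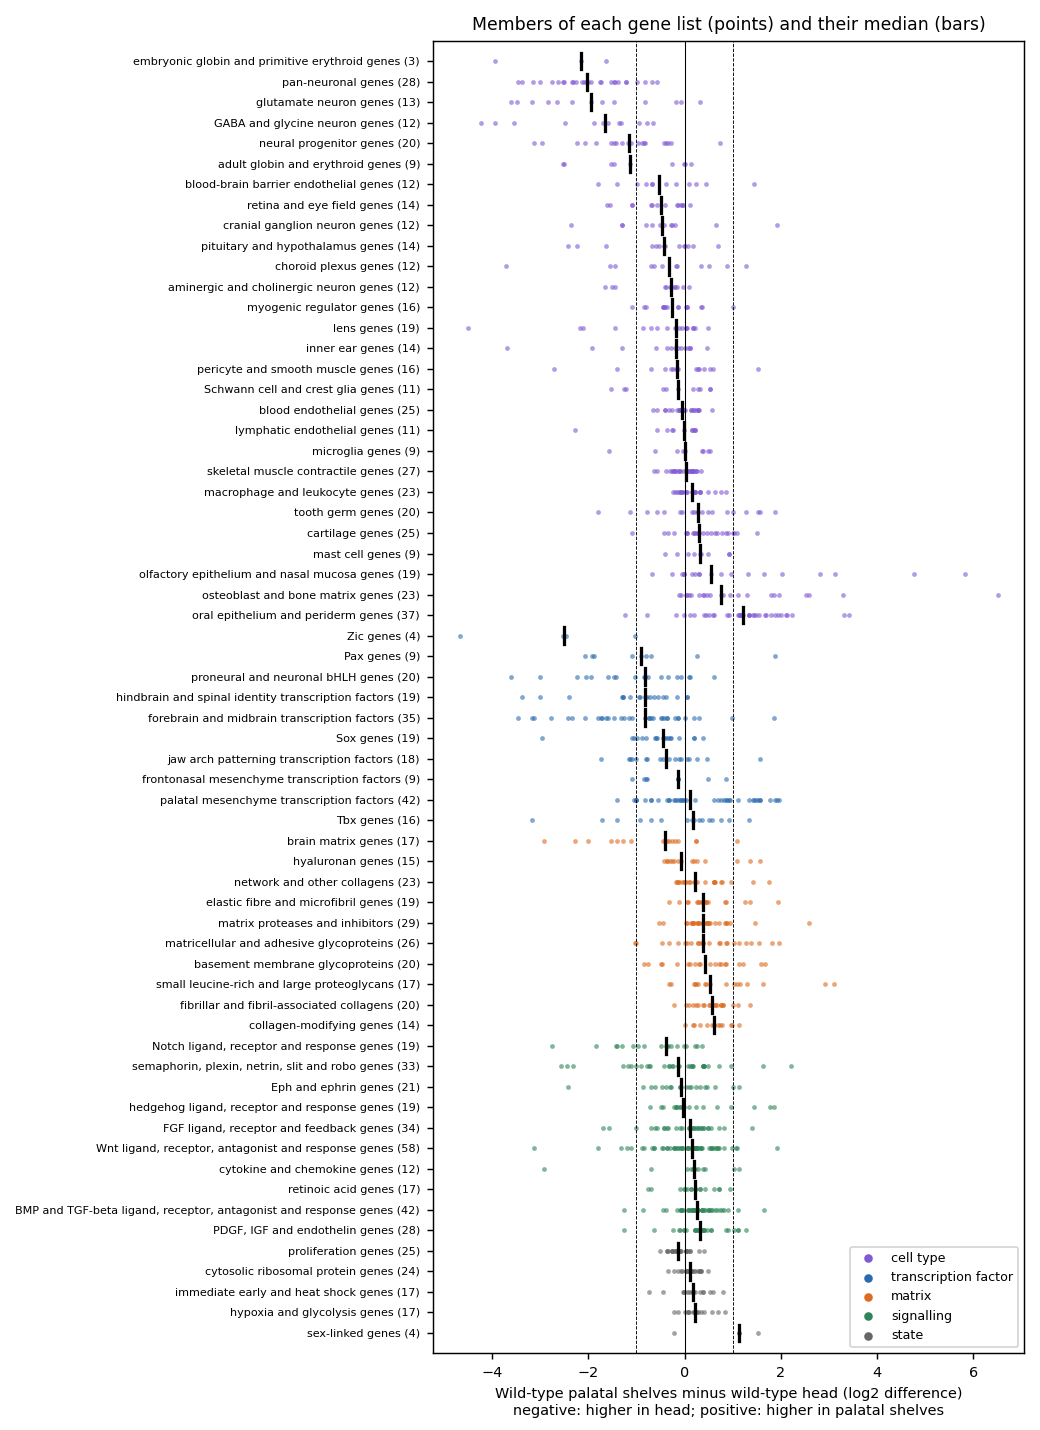
Each point is 1 member of a gene list, placed by its wild-type difference (palatal shelves minus head, log2), with the number of members on the array in brackets, a bar at the list's median and dashed lines at 2-fold. Nervous system, globin and Zic lists sit left of 0 and oral epithelium, bone and collagen lists to the right, while proliferation and ribosomal protein genes sit near 0.

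All 6 lists of neurons and neural progenitors had medians below 0, and the share of members 2-fold higher in the head varied among them. Of 28 pan-neuronal genes, 23 were higher by 2-fold or more in the head and 0 in the shelves, all 28 had a difference below 0, and the median was -2.03 (-1.57 in the knockout pair). In the limma fit, 27 of them were higher in the head. Ina, a neurofilament subunit, read 11.99 and 11.88 in the heads and 8.54 and 10.02 in the shelves. Both heads were above both shelves, 10.9-fold in the wild type. Scg3, a secretory granule protein, differed 10.4-fold, the RNA-binding gene Celf4 8.85-fold and the neurofilament gene Nefl 8.07-fold. Tubb3, the neuronal tubulin, and Dcx, which binds microtubules in migrating neurons, differed 5.77-fold and 5.07-fold. The smallest difference of the list was that of the synaptic vesicle gene Syp, at -0.57. Knockout differences were smaller than wild-type ones for the strongest members, for example -1.86 against -3.45 for Ina and -1.56 against -3.15 for Celf4. These members were picked by their wild-type difference, which by itself favours a smaller knockout difference, and the contrast was not tested.

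In the progenitor and transmitter lists a smaller share of members was 2-fold apart. Among 20 neural progenitor genes, 10 were higher by 2-fold or more in the head and 0 in the shelves, with a median of -1.15. Dbx1, a homeobox gene of neural tube progenitors, read 7.78 and 7.27 in the heads and 4.65 and 4.20 in the shelves, and the intermediate filament gene Nes was 4.73-fold higher in the head. Sox2 was nearly level, at 9.87 in the head and 9.59 in the shelves, and the glial glutamate transporter gene Slc1a3 was the exception, at 0.74. Among 12 GABA and glycine neuron genes, 8 were higher by 2-fold or more in the head (median -1.65), and among 13 glutamate neuron genes 8 (median -1.95). Neurod6, of cortical neurons, differed 12.1-fold and the AMPA receptor subunit gene Gria2 7.14-fold, whereas another subunit gene, Gria1, read 7.50 in the head and 7.81 in the shelves. Of 12 aminergic and cholinergic neuron genes only 4 entered, and Th, the rate-limiting enzyme of catecholamine synthesis, Slc18a2 and Nr4a2 were 2.72- to 3.16-fold higher in the head. Among 12 cranial ganglion genes, Pou4f1, a sensory neuron factor, was 5.12-fold higher in the head, and Runx1, which also marks palatal mesenchyme and epithelium, was 3.76-fold higher in the shelves.

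Sense organ and brain appendage lists held a few strong members among many dim ones. Of 19 lens genes 7 entered and 4 were at least 2-fold higher in the head, the crystallin genes Cryba1, Crybb1, Cryaa and Crybb3, with the last at 2.71-fold. The list median was -0.19. Of 14 retina and eye field genes, Pmel and Dct, of pigment cells, and Lhx2 differed by 3.05-fold, 2.91-fold and 2.15-fold. Among inner ear genes, Pax8 was 3.82-fold higher in the head besides Oc90, and of the choroid plexus list Ttr and the serotonin receptor gene Htr2c (2.95-fold) were higher in the head while Sostdc1, a BMP and Wnt antagonist also expressed in oral epithelium and tooth germs, was 2.42-fold higher in the shelves. Of 14 pituitary and hypothalamus genes, Fezf2, Sim1 and Nkx2-1 were 3.12- to 5.34-fold higher in the head.

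Blood and vessel lists parted. All 3 embryonic globin genes were higher in the head, Hbb-bh1 15.4-fold, Hba-x 4.43-fold and Hbb-y 3.12-fold. Hbb-y read 12.42 and 12.14 in the heads and 10.78 and 10.95 in the shelves. Of 9 definitive erythroid genes with a value, 4 were at least 2-fold higher in the head, led by the anion exchanger gene Slc4a1 at 5.79-fold. Embryonic globins are made by primitive red cells, the first to circulate in the embryo. None of 25 blood endothelial genes was 2-fold apart, and their median was -0.05. Over all genes on the array, 1.53% were 2-fold higher in the shelves and 2.8% in the head. Cdh5, the endothelial cadherin, read 9.96 and 9.89 in the heads and 9.94 and 10.07 in the shelves. Pecam1 read 8.21 and 8.51 in the wild-type pair. Of 12 genes of blood-brain barrier endothelium, the lipid transporter gene Mfsd2a was 2.67-fold and the Wnt-response factor gene Lef1, which other tissues share, 3.51-fold higher in the head, while Foxf2, also a palatal mesenchyme factor, was 2.72-fold higher in the shelves. Among 16 pericyte and smooth muscle genes, Vtn, of brain pericytes, was 6.56-fold higher in the head and Ndufa4l2 2.89-fold higher in the shelves.

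Few muscle and white blood cell genes were 2-fold apart. Of all genes on the array, too, only 1.53% were 2-fold higher in the shelves and 2.8% in the head. None of 27 contractile genes was 2-fold apart in the wild-type pair, the median was 0.04 and the range -0.63 to 0.35. The cardiac-type actin gene Actc1 of embryonic muscle read 9.66 in the head and 9.27 in the shelves, and the embryonic myosin gene Myh3 7.46 and 7.59. The knockout pair had a median of -0.31. Of 16 myogenic regulators, Pax3 was 2.14-fold higher in the head and Eya1 2.00-fold higher in the shelves, both factors of other tissues too, whereas Myod1 and Myog differed by -0.42 and -0.14. Of 23 macrophage and leukocyte genes, only 11 entered and could be counted, and 0 were 2-fold apart. Csf1r, the receptor that macrophages depend on, read 7.19 and 7.19. The closest to the limit was Lgals3, a lectin gene that epithelium also expresses, at 0.85. Of 9 mast cell genes, 3 entered, and Cpa3 had the largest difference among those, at 0.93. In the remaining lists of this kind, Ednrb, Fabp7 and Gap43 of the Schwann cell and crest glia list were 2.33- to 2.90-fold higher in the head, as were Sall1 of the microglia list (2.98-fold) and Reln of the lymphatic list (4.87-fold), genes that brain tissue shares.

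Oral epithelium was the cell type list with the highest median in the shelves. Of 37 genes, 21 were higher by 2-fold or more in the shelves and 1 in the head, the median was 1.21 (1.15 in the knockout pair), and 26 were higher in the shelves in the limma fit. Krt14, the keratin of basal epithelial cells, read 7.36 and 7.45 in the heads and 9.23 and 9.14 in the shelves. Krt17 read 5.502 and 5.82 and 8.80 and 8.68, and Krt6a 4.35 and 4.604 and 7.76 and 7.38. For these 3 keratins both shelves arrays stood above both head arrays, by 3.67-fold, 9.86-fold and 10.6-fold in the wild type. The junction genes Perp and Dsp, of desmosomes, were 4.71-fold and 4.38-fold higher and the surface marker Epcam 3.85-fold. Trp63, the master regulator of stratified epithelium, was 2.54-fold higher, the splicing regulators Esrp1 and Esrp2 of epithelial cells 3.46-fold and 2.53-fold, and the simple-epithelium keratins Krt8, Krt18 and Krt19 2.55-fold, 1.89-fold and 4.28-fold. Among genes with the smallest limma p were 2 more of epithelium, the transcription factor gene Ehf (6.68-fold) and the desmosomal cadherin gene Dsg3 (5.10-fold). Going the other way were Gabrp, a GABA receptor subunit gene, 2.37-fold higher in the head, and Tfap2a, a factor of ectoderm and neural crest, at -0.79.

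Both skeletal lists had medians above 0 and most of their 2-fold members in the shelves. Of 23 osteoblast and bone matrix genes, 8 were higher by 2-fold or more in the shelves and 0 in the head, with a median of 0.75, and 12 were higher in the shelves in the limma fit. Sp7, the zinc finger factor that commits cells to the osteoblast fate, read 6.72 and 6.73 in the heads and 8.69 and 8.83 in the shelves, 3.91-fold apart in the wild type. Panx3 read 5.61 and 5.85 and 8.89 and 9.21. Both genes separated the tissues in both genotypes. Ifitm5, of mineralising osteoblasts, was 5.71-fold higher, Phex, an endopeptidase of phosphate control, 3.64-fold, and Alpl, the alkaline phosphatase of mineralising cells, 2.44-fold. Mmp13, a collagenase, read 6.400 and 4.04 in the wild-type and knockout shelves and 3.82 and 3.92 in the heads, so only the wild-type shelves stood high. Bglap, the late osteoblast gene for osteocalcin, stayed below the entry limit at 5.41 and 5.55, and Dlx5, an early skeletal factor shared with other facial tissues, was level at 9.81 and 9.86. Of 25 cartilage genes, 3 were higher by 2-fold or more in the shelves, the proteoglycan gene Acan at 2.04-fold, the link protein gene Hapln1 at 2.12-fold and Cytl1 at 2.85-fold. Sox9, the chondrogenic factor that brain progenitors also express, was 2.13-fold higher in the head, and Col2a1, the main cartilage collagen gene, differed by -0.22. The list median was 0.31.

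The nasal mucosa list had a larger median difference in the wild-type than in the knockout pair, a contrast that was not tested. Of 19, 8 entered, 5 exceeded 2-fold in the wild-type shelves and 1 in the knockout shelves, with medians of 0.55 and 0.07. Cyp2g1, an olfactory mucosa cytochrome P450, read 9.56 on the wild-type shelves array and 4.79 and 5.18 on the wild-type and knockout head arrays, against 5.39 on the knockout shelves array. Only the wild-type shelves stood high, by 27.3-fold over its head. Fmo6, a flavin monooxygenase gene, followed with 7.998 and 5.27 in the shelves and 4.88 and 4.63 in the heads, and Acsm4 with 7.70 and 5.38 and 5.68 and 5.79. Gng8, a G protein subunit gene of sensory neurons, was 3.13-fold higher in the wild-type shelves and 1.25-fold in the knockout shelves. Omp, the marker of mature olfactory neurons, was below the entry limit, at 5.40 and 5.61, as were Obp1a of nasal secretion (3.21 and 3.19) and Scgb1a1 of airway secretion (3.30 and 3.29). The part of nasal lining in the other differences of the wild-type shelves was not tested. Of 20 tooth germ genes, 5 were higher by 2-fold or more in the shelves, Eda, Sostdc1, Lhx8, Barx1 and Pax9, and 2 in the head, Lef1 and Msx2, and several of these factors also act in palate mesenchyme.

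Transcription factors of the palatal mesenchyme split within their own list. Of 42, 12 were at least 2-fold higher in the shelves and 5 in the head, with a median of 0.12, and the limma fit placed 20 higher in the shelves and 10 in the head. Osr2, the odd-skipped factor needed for shelf growth, read 9.43 and 9.46 in the heads and 10.99 and 11.15 in the shelves. Pax9, needed for palate and tooth development, read 7.66 and 7.59 and 9.55 and 9.68. Sim2, a bHLH-PAS factor, read 8.09 and 7.79 and 10.05 and 10.37. In all 3 both shelves arrays lay above both heads, by 2.95-fold, 3.69-fold and 3.89-fold in the wild type. The forkhead factors Foxf1 and Foxf2, targets of hedgehog signalling in facial mesenchyme, were 3.42-fold and 2.72-fold higher, the LIM homeobox factor Lhx8 2.87-fold, Tbx22, a T-box factor whose human gene is mutated in X-linked cleft palate, 2.54-fold, the tendon and connective tissue factor Mkx 2.68-fold, and Bnc2 2.15-fold. Lhx6 (1.83-fold), Tbx3 (1.90-fold) and Prrx1 (1.93-fold), all of facial mesenchyme, fell short of 2-fold in the wild type. Higher in the head were Tbx18 (2.67-fold), the nuclear receptors Nr2f1 and Nr2f2 (2.02-fold and 2.08-fold), Twist2 (2.02-fold) and Zfhx3 (2.02-fold). Nr2f1, Nr2f2 and Zfhx3 also act in neurons. Osr1, the close relative of Osr2, read 10.50 in the head and 10.14 in the shelves, opposite in sign to Osr2.

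The other facial lists had medians below 0, -0.14 for the frontonasal and -0.39 for the jaw arch list. None of 9 frontonasal factors was 2-fold higher in the shelves, where Six2 had the largest difference at 0.85, and Pax3 was 2-fold higher in the head. Alx1, of upper face mesenchyme, read 9.44 and 9.93 in the wild-type pair, while the knockout difference was -0.13. Of 18 jaw arch factors, 5 were at least 2-fold higher in the head, among them Hand2, which sets lower jaw identity, at 2.13-fold, and Barx1 was higher in the shelves. The distal-less genes Dlx3 and Dlx5 differed by 0.46 and 0.05.

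Among brain factors, the members 2-fold apart were higher in the head with 1 exception. Of 35 forebrain and midbrain factors, 16 were at least 2-fold higher in the head and 1 in the shelves, with medians of -0.81 in the wild-type and -1.26 in the knockout pair. Pou3f2, a POU factor of neural progenitors and neurons, read 7.87 and 7.78 in the heads and 4.40 and 4.98 in the shelves. Tbr1, of early cortical neurons, read 7.73 and 7.86 and 4.56 and 5.01. The heads were above the shelves in both genotypes, by 11.1-fold and 8.97-fold in the wild type. Lhx9 differed 6.89-fold, and Pax6, of cortex and eye, 4.22-fold. The 1 gene of the list that was 2-fold higher in the shelves was Foxa1, a forkhead factor of the midbrain floor that endoderm and mucosal epithelium also express, at 3.64-fold. Dmrt3 read 7.96 in the wild-type shelves and 6.95 in the knockout shelves, with 6.97 and 7.003 in the heads.

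Of 19 hindbrain and spinal identity factors, 8 entered and 5 were at least 2-fold higher in the head. Hoxa2, the Hox gene of the second arch and hindbrain, read 7.75 and 7.45 in the heads and 4.36 and 4.52 in the shelves, 10.4-fold apart in the wild type. Hoxa5 was 5.28-fold and Olig3, of dorsal hindbrain progenitors, 8.01-fold higher in the head. Among 20 neural bHLH genes 9 were 2-fold higher in the head and 0 in the shelves, with Nhlh2 at 4.72-fold, and Olig1 read 5.85 and 6.46. The 4 Zic genes had a median of -2.50, with Zic2 and Zic4 5.80-fold and 5.52-fold higher in the head. Of 9 Pax genes, Pax9 was 2-fold higher in the shelves and Pax2, Pax3, Pax6 and Pax8 in the head. Of 16 T-box genes, Tbx22 was 2-fold higher in the shelves, and Tbr1, Eomes and Tbx18 in the head. Tbx2 differed by 0.75, and Tbx1 itself read 6.83 in the wild-type head and 7.39 in the wild-type shelves. Of 19 Sox genes 3 were 2-fold higher in the head, the neural genes Sox1 and Sox11 and Sox9, and 0 in the shelves.

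**Figure D3:**
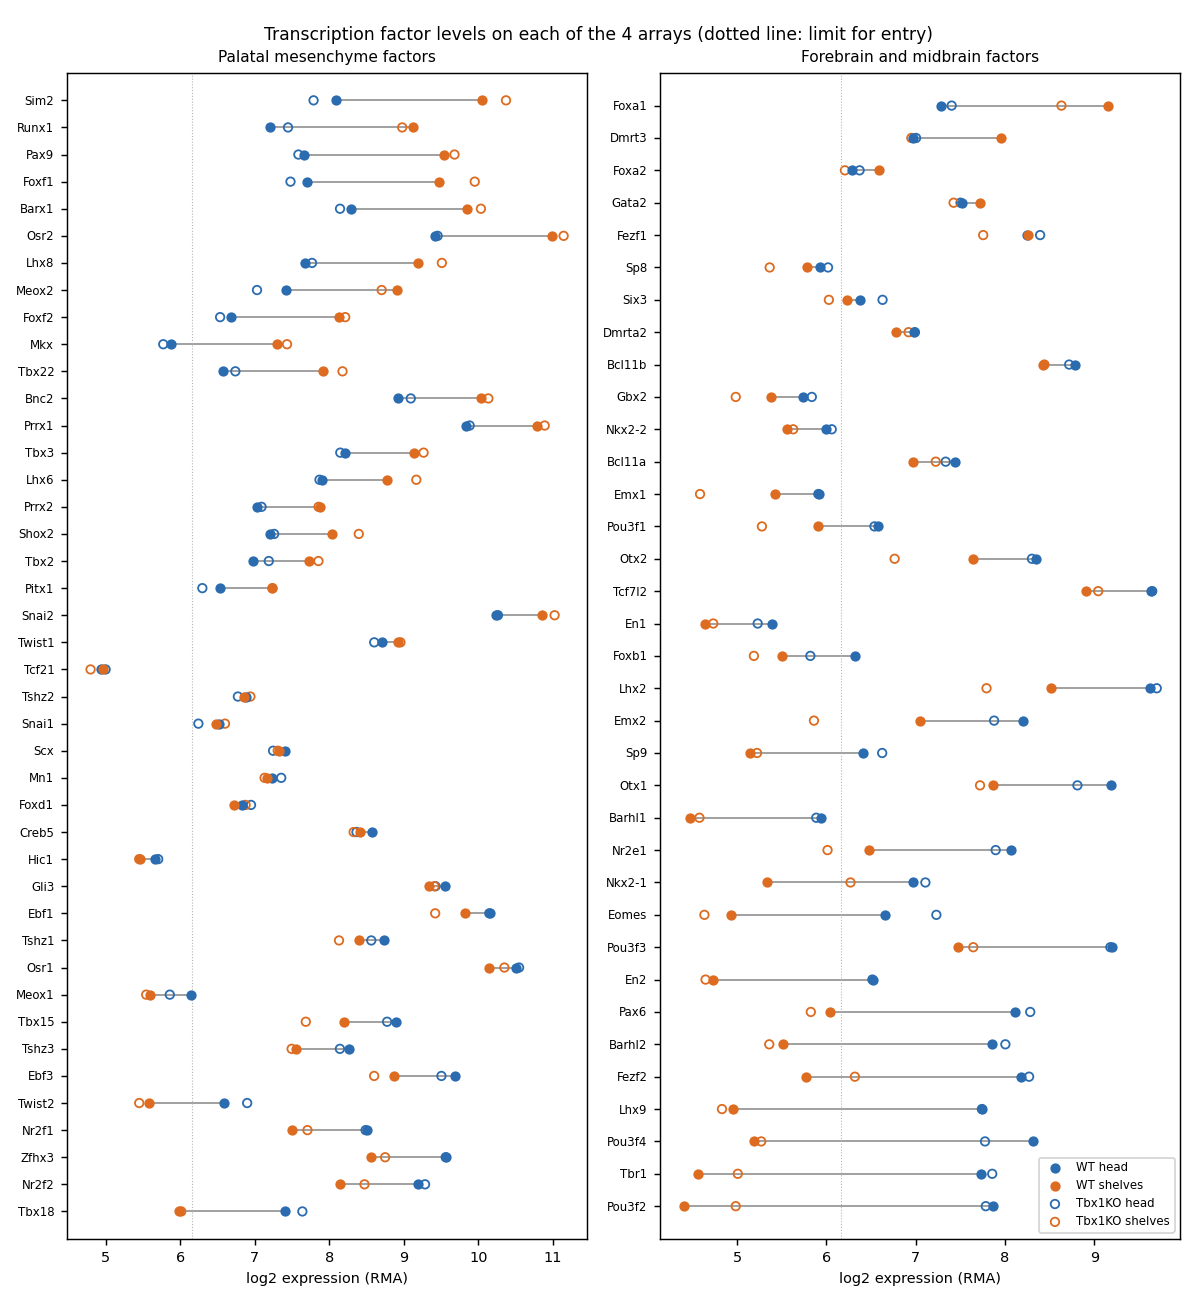
Levels (log2 expression) of 42 palatal mesenchyme factors and 35 forebrain and midbrain factors on each array, filled points for the wild type and open points for the Tbx1 knockout, with a line joining the wild-type head to the wild-type shelves and a dotted line at the entry limit of 6.16. Palatal factors fan out both ways from Sim2 (1.96) to Tbx18 (-1.42), whereas 30 of the 35 brain factors have the wild-type head to the right of the wild-type shelves.

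Most lists of extracellular matrix genes had medians above 0, with the brain matrix (-0.41) and hyaluronan (-0.07) lists below it. Collagens form the fibrils and networks, and small leucine-rich proteoglycans coat and space the fibrils. Of 20 fibrillar and fibril-associated collagen genes, 19 had a difference above 0, 2 were at least 2-fold higher in the shelves and 0 in the head. The median was 0.58 (0.51 in the knockout pair) and 12 were higher in the shelves in the limma fit. Col14a1, a fibril-associated collagen, differed 2.56-fold and Col24a1, of developing bone, 2.16-fold. The abundant collagen genes Col1a1, Col1a2 and Col3a1 differed by 1.74-fold, 1.44-fold and 1.55-fold. Of 23 network and other collagens, Col8a1, of vessel walls and mesenchyme, and Col17a1, the hemidesmosome collagen of basal epithelium, were 3.38-fold and 2.68-fold higher. The chains of the basement membrane collagen Col4a1 and Col4a2 differed by -0.15 and -0.02, and those of the pericellular collagen Col6a1, Col6a2 and Col6a3 by 0.77, 0.77 and 0.97.

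Of 17 proteoglycan genes, 7 were higher by 2-fold or more in the shelves and 0 in the head, with a median of 0.53. Aspn, encoding asporin, read 7.33 and 7.17 in the heads and 10.25 and 10.19 in the shelves. Omd, encoding osteomodulin of bone, read 3.83 and 3.20 and 6.94 and 6.63. Both separated heads from shelves in both genotypes, with wild-type folds of 7.59 and 8.63. Kera (3.11-fold), Ogn (2.44-fold), Lum (2.23-fold) and Dcn (2.14-fold) followed, while Vcan, the large proteoglycan of loose mesenchyme, differed by 0.43 and Bgn by 0.53.

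The enzymes and chaperones that make collagen shared 1 direction. All 14 collagen-modifying genes had a difference above 0, with a median of 0.61, 1 was at least 2-fold higher in the shelves (the foldase Fkbp7, 2.19-fold), and 11 passed in the limma fit. Plod2, a lysyl hydroxylase, and Creb3l1, a factor of collagen secretion in osteoblasts, differed by 0.95 and 0.99. In this list the prolyl hydroxylase genes P4ha1 and P4ha2, which hypoxia also induces, differed by 0.56 and 0.68 in the wild type and by 1.27 and 1.73 in the knockout pair. Of 19 elastic fibre genes, 3 were higher by 2-fold or more in the shelves, with Eln, encoding elastin, at 7.10 and 7.19 in the heads and 9.04 and 9.22 in the shelves, 3.83-fold apart. Ltbp4 and Fbln5, which assemble elastin, were 2.58-fold and 2.38-fold higher, and Lox, which cross-links collagen and elastin, differed by 0.85.

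Of 26 matricellular and adhesive genes, 7 were higher by 2-fold or more in the shelves and 2 in the head. Postn, encoding periostin, read 10.27 and 10.19 in the heads and 12.07 and 12.13 in the shelves, 3.50-fold apart in the wild type. The tenascin genes Tnn and Tnc were 3.90-fold and 2.20-fold higher, Thbs2 2.93-fold and Mgp, an inhibitor of mineralisation, 2.60-fold. Fn1, encoding fibronectin, was level, at 11.74 and 11.76. Higher in the head were Edil3 (2.05-fold) and Vit (2.02-fold). Among basement membrane genes, the laminin chains of epithelia Lama3 and Lama5 were 3.16-fold and 2.33-fold higher in the shelves and the integrin ligand gene Npnt 2.999-fold, whereas Lama1, of the early embryo and neuroepithelium, differed by -0.76. Of 15 hyaluronan genes, the synthase gene Has2 and its product's receptor gene Cd44 were 2.98-fold and 2.55-fold higher, and Has1 and Has3 stayed below the entry limit. Of 29 proteases and inhibitors, 27 had a difference above 0 and 2 were 2-fold higher, Mmp13 and Adamts18 (2.77-fold). Among genes with the smallest limma p stood the matrix gene Abi3bp, 5.90-fold higher in the shelves.

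Brain matrix genes went the other way. Of 17, 7 were at least 2-fold higher in the head and 1 in the shelves, with a median of -0.41. Ncan, encoding the proteoglycan neurocan, read 8.83 and 8.66 in the heads and 5.91 and 6.95 in the shelves, and the wild-type shelves were the lowest of the 4 arrays. The fold was 7.58 in the wild-type and 3.29 in the knockout pair. Reln, the signal that guides cortical layering, was 4.87-fold and the synapse organiser gene Cbln1 4.02-fold higher in the head. The shelves exception was Hapln1, which cartilage also makes.

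**Figure D4:**
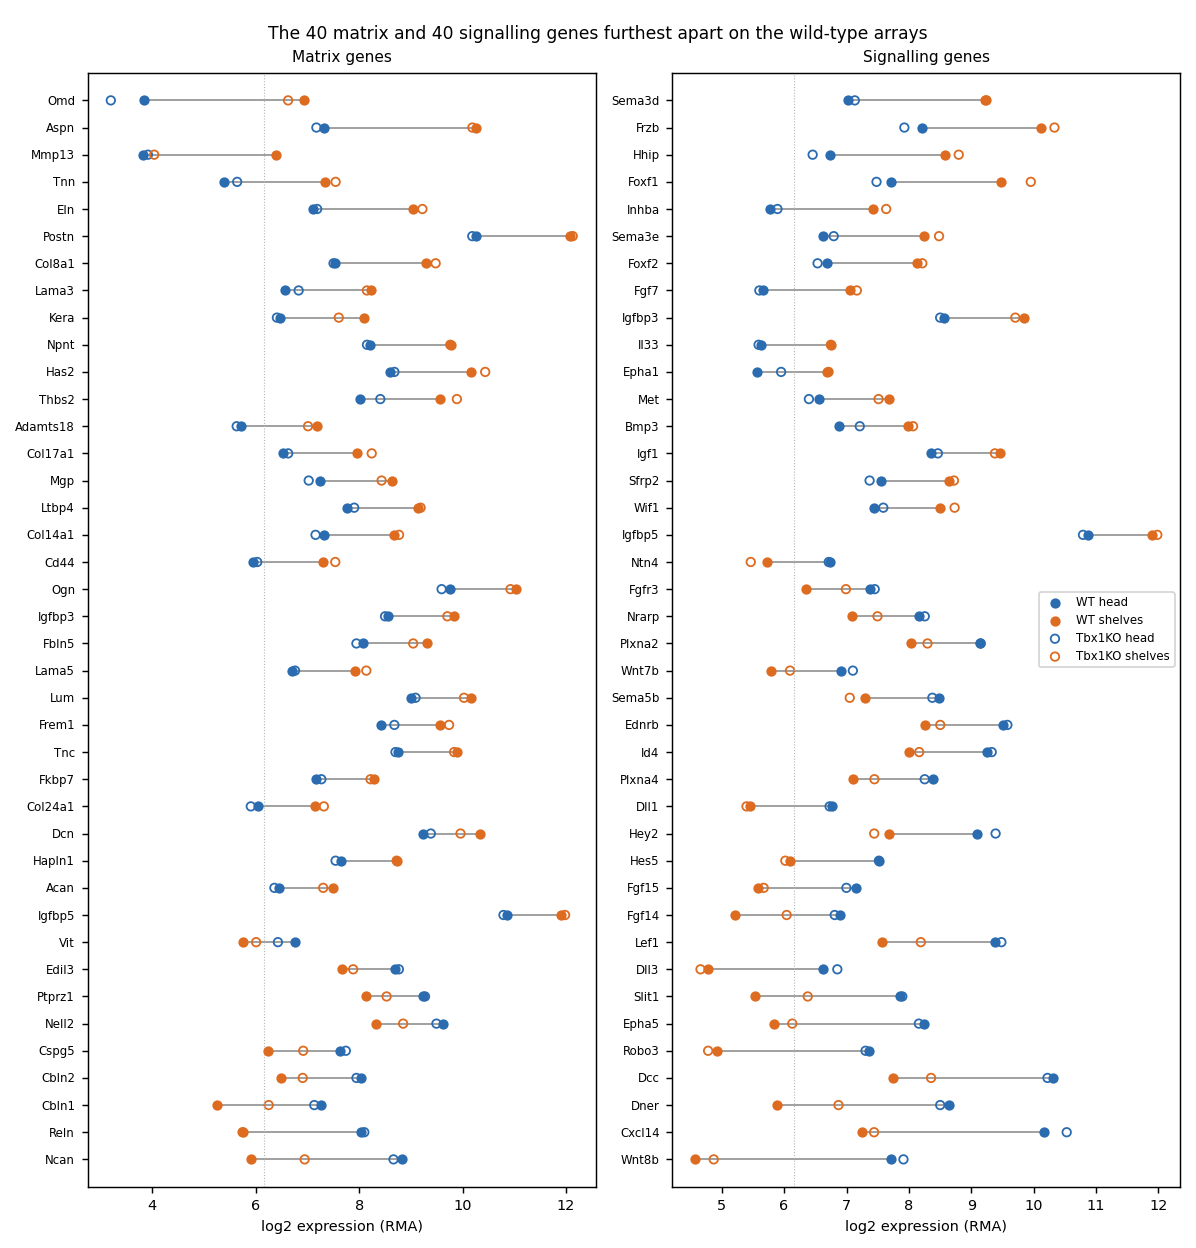
Levels (log2 expression) on each array of the 40 matrix and 40 signalling genes that entered and had the largest wild-type differences, ordered by that difference, with filled points for the wild type, open points for the Tbx1 knockout and a dotted line at the entry limit of 6.16. Matrix genes higher in the shelves run from Omd (3.11) downward, and the lower end holds neural genes such as Ncan (-2.92) and Wnt8b (-3.13).

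Within most signalling lists, members differed in both directions. Over all genes on the array, 1.53% were 2-fold higher in the shelves and 2.8% in the head. For the FGF, Wnt, BMP and TGF-beta, and Eph lists below, the 2-fold counts are small. Their distance from these shares was not tested. In hedgehog signalling, the ligand binds the receptor Ptch1, which frees Smo to activate Gli factors, and Gli1, Ptch1 and Hhip are themselves targets. The ligand genes Shh and Dhh were below the entry limit on both wild-type arrays and Ihh differed by 0.38. Among targets, Hhip, which sequesters the ligand, read 6.73 and 6.46 in the heads and 8.58 and 8.80 in the shelves, and both shelves were above both heads, 3.61-fold in the wild type. Gli1 and Ptch1 differed by 0.96 and 0.67, and the mesenchymal targets Foxf1 and Foxf2 are given above. The co-receptor genes Cdon, Gas1 and Boc differed by -0.71, -0.46 and -0.17, and Smo by 0.23. The list of 19 had 3 genes at least 2-fold higher in the shelves, 0 in the head and a median of -0.03.

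Of 34 FGF genes, 1 was at least 2-fold higher in the shelves, the mesenchymal ligand gene Fgf7 at 2.65-fold, and 3 in the head, Fgf14 (3.23-fold), Fgf15 (2.95-fold) and the receptor gene Fgfr3 (2.03-fold). Fgf10, the shelf mesenchyme ligand for the epithelial receptor Fgfr2, read 5.79 and 6.49, and Fgfr2 9.18 and 9.68. The feedback genes Spry1, Spry2, Spry4 and Dusp6 differed by 0.39, 0.24, 0.19 and 0.11.

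Of 58 Wnt genes, 3 were higher by 2-fold or more in the shelves, all secreted antagonists, Frzb (3.76-fold), Sfrp2 (2.13-fold) and Wif1 (2.09-fold). Frzb read 8.21 and 7.93 in the heads and 10.12 and 10.33 in the shelves. Higher in the head were the ligand genes Wnt8b (8.76-fold) of the medial cortex and Wnt7b (2.18-fold) and the nuclear effector gene Lef1. The target genes Axin2 and Nkd1 differed by -0.47 and -0.84. Not every antagonist followed: Sfrp1 read 10.46 and 10.62 and Dkk1 7.32 and 7.27. The ligand gene Wnt5a of shelf mesenchyme differed by -0.20, and its receptor genes Ror1 and Ror2 by 0.65 and 0.32.

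Among 42 BMP and TGF-beta genes, 2 were higher by 2-fold or more in the shelves and 1 in the head, with 32 above 0. Inhba, the activin A subunit, read 5.78 and 5.89 in the heads and 7.42 and 7.64 in the shelves, 3.13-fold apart in the wild type, and Bmp3, of bone, differed 2.15-fold. Tgfb3, the ligand needed for fusion of the shelves' epithelium, read 8.18 in the head and 9.09 in the shelves, a difference of 0.91, and 1.32 in the knockout pair. Tgfb1 and Tgfb2 differed by 0.50 and 0.10. Bmp2 and Bmp4, ligands of epithelium and mesenchyme, differed by 0.74 and 0.19, and the response genes Id1, Id2 and Id3 by 0.43, 0.17 and 0.18. Id4, of neural progenitors, was 2.40-fold higher in the head. Of 28 PDGF, IGF and endothelin genes, 4 were 2-fold higher in the shelves, the growth factor gene Igf1 (2.14-fold), the binding protein genes Igfbp3 and Igfbp5 (2.43-fold and 2.04-fold) and the epithelial receptor gene Met (2.17-fold), and Ednrb, of crest-derived melanocyte and glial lines, was 2.40-fold higher in the head. Pdgfra, the receptor of facial mesenchyme, differed by 0.47. None of 17 retinoic acid genes was 2-fold apart, and the synthesis enzyme gene Aldh1a2 had the largest difference, 0.95.

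Notch genes that were 2-fold apart lay in the head, with 6 of 19 at least 2-fold and 0 in the shelves. The ligand genes Dll1 and Dll3, which mark nascent neurons, and Dner were 2.47-fold, 3.61-fold and 6.75-fold higher, and the target gene Hes5 of neural progenitors 2.69-fold. The ligands of epithelium and mesenchyme Jag1 and Jag2 differed by 0.21 and 0.37, and the general target Hes1 by 0.25. Guidance genes split by member. Of 33 semaphorin, plexin, netrin, slit and robo genes, 7 were higher by 2-fold or more in the head, led by the netrin receptor gene Dcc (5.94-fold) and Robo3 (5.41-fold) of crossing axons, and 2 in the shelves, the secreted semaphorin genes Sema3d and Sema3e. Sema3d read 7.02 and 7.13 in the heads and 9.22 and 9.24 in the shelves, 4.61-fold apart in the wild type. Slit1 was 5.01-fold higher in the head, whereas Slit2 and Slit3 differed by 0.41 and 0.38. Of 21 Eph and ephrin genes, Epha5, of axons, was 5.33-fold higher in the head and Epha1, of epithelium, 2.18-fold in the shelves. The chemokine gene Cxcl14 read 10.17 and 10.53 in the heads and 7.25 and 7.44 in the shelves, 7.59-fold higher in the wild-type head, and the alarmin gene Il33 was 2.19-fold higher in the shelves.

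Of the lists on cell state, the proliferation, ribosomal protein, hypoxia and stress lists had no member 2-fold apart in the wild type. Over all genes on the array, 1.53% were 2-fold higher in the shelves and 2.8% in the head. None of 25 proliferation genes was 2-fold apart, with a median of -0.13 and a range of -0.51 to 0.40. Mki67, the gene of the Ki-67 antigen of dividing cells, read 10.71 in the head and 10.82 in the shelves. The 24 ribosomal protein genes had a median of 0.10. None of 17 hypoxia and glycolysis genes was 2-fold apart in the wild-type pair (median 0.21), while 7 were 2-fold higher in the knockout shelves than in the knockout head (median 0.71). Bnip3, a hypoxia target, differed by 0.21 in the wild-type and 1.54 in the knockout pair. Of 17 immediate early and heat shock genes, 0 were 2-fold apart. The sex-linked list was 1 of the 2 lists whose median passed 2-fold toward the wild-type shelves, at 1.14, with 3 of its 4 genes past that limit. Its Y-linked genes Uty, Kdm5d and Eif2s3y read lower in the wild-type head (6.91, 5.90 and 7.09) than in the wild-type shelves (8.44, 7.04 and 8.23), and their knockout differences were 0.02, -0.27 and -0.08. Xist read 11.10 and 10.88 in the wild-type head and shelves. In the knockout head and shelves it read 10.04 and 11.02, a difference of 0.98. The part of embryo sex in other differences was not tested.

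The knockout pair gave a second, separate set of differences between shelves and head, over embryos of another genotype. There, 11661 genes entered, with 310 at least 2-fold higher in the shelves and 474 in the head. Of the wild-type genes, 215 of the 340 higher in the shelves (63.2%) and 417 of the 620 higher in the head (67.3%) were also at least 2-fold apart the same way in the knockout pair. Pearson's r between the 2 sets of differences was 0.889 over the 11427 genes that entered both, across genes, which are not independent replicates. Of the 960 genes 2-fold apart in the wild type, 14 had the opposite sign in the knockout pair, 13 of them higher in the wild-type shelves. Largest among these were Sult1e1, a sulfotransferase gene, Acsm4, S100z and Rtp2, a receptor transporter gene of olfactory neurons. Their wild-type shelves level stood at 6.60 to 7.70, and their other 3 arrays were at or below 5.79. Several head genes, such as Zic1, Lhx5, Glra2 and Ncan, read higher in the knockout shelves than in the wild-type shelves and were nearly equal in the heads.

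**Figure D5:**
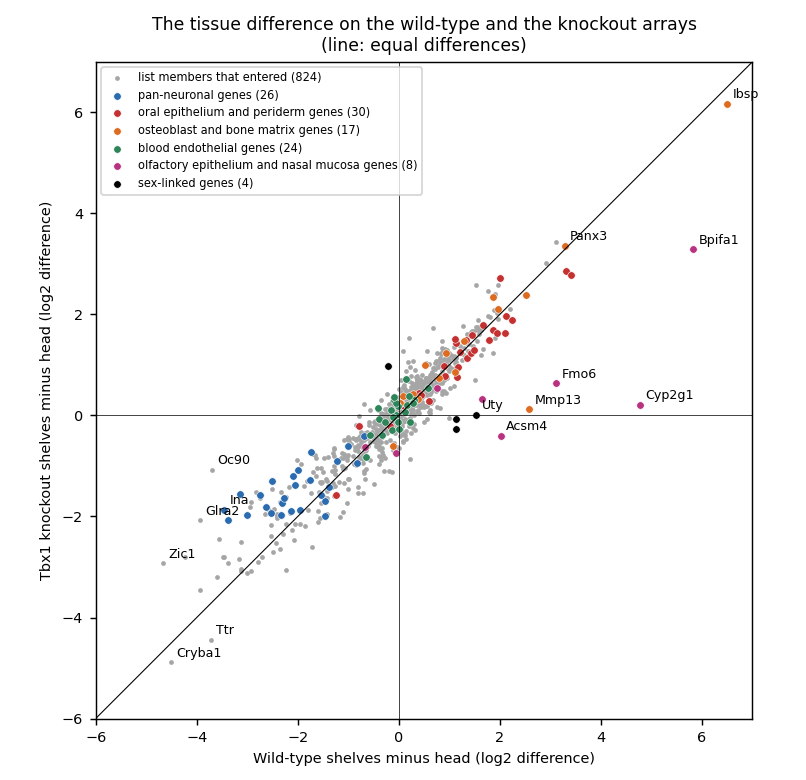
Difference between palatal shelves and head (log2) in the wild-type pair on the horizontal axis and in the Tbx1 knockout pair on the vertical axis, for 824 list members that entered, with 6 lists in colour and a line of equal differences. Most points follow the line, as Ibsp does at 6.502 and 6.17, and the nasal genes Cyp2g1, Fmo6 and Acsm4 and the bone collagenase gene Mmp13 fall below it.

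Genes with the smallest limma p were, in the shelves, Ibsp, Panx3, Aspn, Omd, Ehf, Serpinb5, Abi3bp, the aminopeptidase gene Enpep, Ifitm5 and Dsg3. In the head they were Cryba1, Cryga, Dbx1, Wnt8b, Olig3, Cxcl14, the interneuron membrane protein gene Lamp5, Lhx9, Vtn and Neurod6. Enpep differed by 2.47 (SE 0.10, adjusted p = 5.72e-05) and Lamp5 by -2.83 (SE 0.10, adjusted p = 4.27e-05). All 20 had wild-type and knockout differences of the same sign. That follows from the choice, since the fit gives the smallest p to genes whose 2 differences are large and alike. Cyp2g1, with a wild-type difference of 4.77 and a knockout difference of 0.21, had a limma difference of 2.49 (SE 0.90) and an adjusted p of 0.086. For Mmp13 the adjusted p was 0.088. Transcript clusters with several symbols or none were left unnamed: 6158 of them entered, with 121 at least 2-fold higher in the shelves and 135 in the head.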

How the data were processed

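RNA of 4 samples, 1 per group of genotype and tissue, was measured on 4 arrays. The authors deposited log2 values per transcript cluster. The submitters' processing notes name RMA in the Affymetrix Expression Console, and neither a version nor a genome build is given in the sources used here. RMA gives the probe intensities of the arrays a common distribution, which removes a shift shared by most genes and compresses folds of dim genes. The deposited cluster values were close to a common distribution but not identical. Their medians ran from 5.64 on the wild-type head array to 5.70 on the wild-type shelves array. Per the labels' protocols, TRIzol and then a column kit served to extract the RNA.

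Of 41345 clusters, 23521 had 1 gene symbol in the platform annotation, 1814 several and 16010 none. By Entrez identifier 23328 matched RefSeq (GRCm38.p6), with 0 symbols changed. Clusters of a gene were averaged (1082 genes had several). A gene entered the wild-type pair when its higher array reached log2 6.16, and was counted from 2-fold. Over both genotypes, limma 3.58.1 in R 4.3.3 (lmFit, eBayes, Benjamini-Hochberg) fitted tissue and genotype, with 1 residual and 5.49 prior degrees of freedom, and was tested on simulated data. The labels give no replicates within a group. The p-values therefore rest on how far the wild-type and knockout differences of a gene part, with a spread shared over genes. That gap may be technical, and it also holds any effect of the knockout on the tissue difference.

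The genes described and the 63 gene lists were chosen with earlier results of these data known. The text names the 15 genes with the largest wild-type difference each way (skipping predicted genes, olfactory and vomeronasal receptors, small RNAs and Rik or Gm models, 5 in the head and 0 in the shelves), list members, up to 10 genes each way with the smallest limma p, and genes of opposite sign in the knockout pair. Genes on a list without a value here were not analysed here. Alternatives were other scalings, the brightest cluster, other filters and folds, the knockout pair, other limma settings and leaving out each array.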

Additional observations from a re-analysis of the deposited data

Results flagged for a closer look

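A gene at least 2-fold apart in the wild-type pair with the opposite sign in the knockout pair was looked at again, and there were 14. The difference between the pairs was not tested for any of them, since each pair has 1 array per tissue. In 13 the wild-type shelves were higher than the wild-type head, with differences of 2.12 for Sult1e1 (-0.28 in the knockout pair), 2.02 for Acsm4 (-0.40), 1.83 for S100z (-0.24), 1.79 for Rtp2 (-0.02), 1.29 for Map3k19 (-0.03) and 1.24 for Lrrc32 (-0.36). Kdm5d differed by 1.14 (-0.27) and Eif2s3y by 1.135 (-0.08), and both are Y-linked. Fstl5 differed by 1.12 (-0.81), Rgs22 by 1.09 (-0.04), Gsdmcl2 by 1.08 (-0.15), Upk1b by 1.05 (-0.09) and D930020B18Rik by 1.03 (-0.00514). In 1 gene, the GABA receptor subunit gene Gabra5, the wild-type head was higher, with a difference of -1.29 against 0.40 in the knockout pair. Sult1e1, Acsm4, S100z, Rtp2, Map3k19, Rgs22, Gsdmcl2 and D930020B18Rik were under the entry limit on both knockout arrays. Their knockout signs rest on dim values.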

How the results depend on the processing

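Under centring on the median, quantile normalization again, cyclic loess and the brightest cluster, counts at 2-fold stayed within 1.5 times of 340 and 620, and of the genes counted the share higher in the head lay within 62.9% to 66.2%. With the upper-quartile filter they were 158 and 334, from 1.5-fold 870 and 1207, and from 4-fold 55 and 161. The limma counts ran from 354 to 1632 in the shelves and from 459 to 2027 in the head when 1 array was left out, lowest without the wild-type head array and next lowest, 378 and 463, without the knockout head array. With the upper-quartile filter the limma count in the shelves was 1029. Lists with a median 2-fold higher in the shelves numbered 1 in the knockout pair and 5 with the upper-quartile filter, against 2, and lists 2-fold higher in the head numbered 14 over only the members that entered, an alternative chosen after seeing the data, against 7. In the knockout pair, 9 list medians changed sign. The sex-linked list, 2-fold higher in the wild-type shelves, had a median of -0.0303 there, and the 8 others, among them the contractile, macrophage, mast cell, T-box and hedgehog lists, had medians between -0.31 and 0.33 in both pairs. Single genes 2-fold apart in the wild type also changed sign, -0.28 for Sult1e1, -0.40 for Acsm4, -0.24 for S100z, -0.01716 for Rtp2, -0.02537 for Map3k19, -0.36 for Lrrc32, -0.27 for Kdm5d, -0.07628 for Eif2s3y, -0.81 for Fstl5, -0.0393 for Rgs22, -0.15 for Gsdmcl2, -0.09042 for Upk1b, -0.00514 for D930020B18Rik and 0.40 for Gabra5. Among these, Sult1e1, Acsm4, S100z, Rtp2, Map3k19, Rgs22, Gsdmcl2 and D930020B18Rik were under the entry limit on both knockout arrays, where a sign rests on dim values. Of 213 named genes 2-fold apart, all 213 kept their direction under the 3 other scalings and the brightest cluster. Under these, 3 lists near 0 differed in the sign of their median, the contractile, lymphatic and microglia lists. The setting without a filter and the other folds do not apply to list medians and were not run for them. The labels give no replicate numbers by which to pair arrays. With genotype as a term, the main fit already compared shelves and head within each genotype. Signal over background limits the dim genes: a gene under the entry limit on both arrays was not counted.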
